A study of Mus musculus with 8 samples.

Results

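The 10 genes described here encode proteins of growth arrest and of the response to p53, namely Cdkn1a, Cdkn1b, Mdm2, Ccng1, Trp53inp1, Gadd45a, Gadd45b, Gadd45g, Btg1 and Btg2. They were taken by gene symbol from the 23183 genes in the count tables, all 10 were found, and all 10 were among the 12239 genes with enough counts to test. Group 2 innate lymphoid cells (ILC2s) from the lungs of male and female C57BL/6 mice aged 6 to 10 weeks were cultured and treated for 3 h. The 4 treated samples received 5 µM Yoda1, a chemical agonist of the mechanosensitive ion channel Piezo1, and the 4 control samples received 0.1% DMSO, the vehicle. Cells of both groups came from mice given IL-33, were enriched with a pan-ILC kit and CD45 beads, and were grown with IL-2, IL-7 and IL-33, exposures that both groups share. Poly(A) RNA was sequenced, and the sources do not say whether replicates were separate mice or 1 pool of cells, so p-values measure only the spread between these samples.

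The transcription factor p53 is stabilized by DNA damage and other stress and induces genes that halt the cell cycle, repair DNA or kill the cell. Its level is held down by Mdm2, itself a p53 target, which closes a feedback loop. Several of the genes here are also switched on by growth factors, cytokines, calcium and NF-κB without p53, and the BTG proteins and p27 are best known in lymphocytes for keeping resting cells from dividing.

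Total counts ranged from 13435521 to 18216729 in the DMSO samples and from 12438009 to 19534653 in the Yoda1 samples. Levels are given as CPM, counts scaled to a common library size with TMM factors, on which 1 count equalled between 0.0514 and 0.0807 CPM. Of the 11 ILC2 markers listed, all were tested and 5 rose, their sum lay between 16852 and 17406 CPM with DMSO and between 18911 and 19284 with Yoda1, and Gata3 was at 565 CPM in both groups. Among markers of other cells, Pax5 (B cells), Mertk (macrophages) and Sftpc (alveolar epithelium) were at 0 in every library. Cd79b of the B cell list was at 5.97 CPM with DMSO, and Pecam1, at 220.2 CPM with DMSO, made up most of the epithelial and stromal list, which summed to between 214 and 229 CPM with DMSO and between 219 and 224 with Yoda1. The 6 NK cell markers summed to between 764 and 841 CPM with DMSO and between 812 and 877 with Yoda1, mostly from Prf1 and Gzma, and Prf1 and Eomes rose. The 8 T cell markers summed to between 89.4 and 95.7 CPM with DMSO and between 98.0 and 109 with Yoda1, and the 8 macrophage and dendritic cell markers to between 26.6 and 28.5 and between 32.7 and 38.1, where Xcr1 was the only gene of its list that passed the test. In the T cell list Cd28 rose, and the smallest edgeR adjusted p among the 7 tested genes of the B cell, ILC3, mast cell and basophil, and epithelial and stromal lists was 0.0906, for Pdgfrb. In bulk samples more cells of a type and more RNA per cell cannot be told apart, and the part these markers have in the results below was not tested.

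Of the 10 genes, 4 differed between the groups at an adjusted p under 0.05 (quasi-likelihood test of edgeR, Benjamini-Hochberg over the 12239 genes). Btg2, Mdm2 and Btg1 rose with Yoda1 and Gadd45g fell. Of all genes tested, 10.9% passed (6.04% higher and 4.84% lower). All 4 changes were small, the largest being the decrease of Gadd45g to 0.797 times its DMSO level and the increase of Btg2 by 1.21-fold. Of the 10 genes, 9 had a log2 fold change above 0, against 48.4% of all genes tested, and the median was 0.067 against -0.0053 for all genes. The groups did not overlap for 5 of the 10 genes, the 4 above and Cdkn1a, against 15.5% of all genes. With library size alone or upper-quartile factors, which moved the median of all genes to -0.027 and -0.036, 8 of the 10 were above 0 and the same 4 genes passed. The number above 0 was 7 without DMSO replicate 2 and 8 without DMSO replicate 4 or Yoda1 replicate 3.

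**Figure D1:**
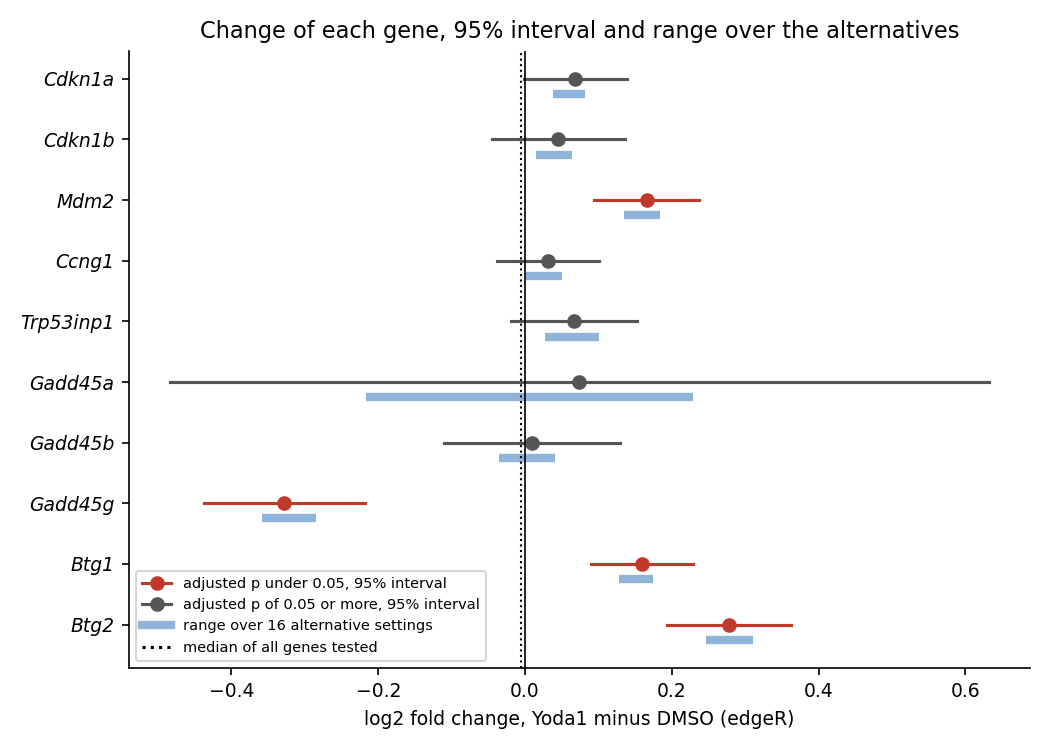
The log2 fold change (Yoda1 minus DMSO, edgeR) is plotted for each gene as a point with its 95% interval, in red where the adjusted p was under 0.05, with a blue bar for its range over 16 alternative settings and a dotted line at the median of all genes tested. Btg2, Mdm2 and Btg1 lie to the right of 0 and Gadd45g to the left, while Gadd45a has the widest interval, from -0.48 to 0.63.

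Btg1 and Btg2 encode short-lived antiproliferative proteins that bind the CCR4-NOT deadenylase complex and promote the shortening of mRNA tails. Both rose with Yoda1. Btg2 lies on chromosome 1 (134075170 to 134079120, minus strand, 2 exons) and Btg1 on chromosome 10 (96617006 to 96622809, plus strand, 2 exons), in GENCODE M21 on the mouse build GRCm38.

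Btg2 was at 112, 113, 108 and 116 CPM in DMSO replicates 1 to 4 and at 139, 136, 143 and 127 CPM in Yoda1 replicates 1 to 4. Every Yoda1 library lay above every DMSO library, and Yoda1 replicate 4 was the lowest of its group. The means were 112 ± 3.43 and 136 ± 6.73 CPM (± SD over n = 4 libraries a group), which is a log2 change of 0.28 (SE 0.041, 95% interval from 0.19 to 0.36, edgeR adjusted p = 2.07e-05). By p-value Btg2 ranked 116th of the 12239 genes tested.

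Btg1 was at 596, 606, 579 and 569.9 CPM in the DMSO replicates and at 672, 649, 652 and 653 CPM in the Yoda1 replicates. The groups did not overlap, with the lowest Yoda1 library 42.2 CPM above the highest DMSO library. The means were 588 ± 16.3 and 657 ± 10.4 CPM (± SD over n = 4 libraries a group), which is a log2 change of 0.16 (SE 0.034, 95% interval from 0.089 to 0.23, edgeR adjusted p = 0.00212). In CPM the gain of Btg1 was 68.7 and that of Btg2 was 24.0, although the fold change of Btg2 was larger. The rows for Btg1-ps1 and Btg1-ps2, named as copies of Btg1, held 0 counts in all 8 libraries, and how reads shared between such copies were counted is not stated.

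The promoter windows of both genes are shown because these genes rose together. They run from 250 bases before to 50 bases after the RefSeq transcript start on GRCm38.p6 (chr1:134079106-134079405, minus strand, and chr10:96616751-96617050, plus strand), and capitals mark matches, on either strand, to the 4 short motifs searched and to the p53 decamer.
Btg2 promoter: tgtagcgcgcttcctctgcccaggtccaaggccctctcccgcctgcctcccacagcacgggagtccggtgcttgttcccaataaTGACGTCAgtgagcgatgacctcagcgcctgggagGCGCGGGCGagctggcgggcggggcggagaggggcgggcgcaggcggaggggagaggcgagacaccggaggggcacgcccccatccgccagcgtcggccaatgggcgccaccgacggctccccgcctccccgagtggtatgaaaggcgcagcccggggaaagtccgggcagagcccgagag
Btg1 promoter: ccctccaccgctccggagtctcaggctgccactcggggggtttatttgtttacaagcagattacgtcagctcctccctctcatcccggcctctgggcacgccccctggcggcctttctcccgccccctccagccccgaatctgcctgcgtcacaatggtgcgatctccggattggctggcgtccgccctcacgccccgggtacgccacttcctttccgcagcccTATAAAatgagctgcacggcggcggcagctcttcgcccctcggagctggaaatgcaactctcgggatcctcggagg
The Btg2 window holds the cyclic AMP response element TGACGTCA, which starts at base -166 from the transcript start and is found in 1.79% of all 32851 promoter windows, and an Egr motif (GCGNGGGCG) at -131, found in 5.55%. The Btg1 window holds a TATA box (TATAAA) at -26, found in 13.6% of windows. Neither holds the AP-1 motif TGANTCA, found in 7.81% of windows, or a p53 decamer, found in 8.36%. Such a match is a stretch of letters and not a measured binding site.

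Mdm2 encodes the ubiquitin ligase that marks p53 for degradation. Cdkn1a (p21) inhibits cyclin-dependent kinases, Ccng1 (cyclin G1) is a p53 target that recruits a phosphatase to Mdm2, and Trp53inp1 is a nuclear p53 target. Of these 4 genes, Mdm2 rose and the other 3 did not pass the test.

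Mdm2 (chromosome 10, 117688875 to 117710758, minus strand, 12 exons) was at 296, 285, 297 and 308 CPM in the DMSO replicates and at 340.3, 325, 334 and 331 CPM in the Yoda1 replicates. All 4 Yoda1 libraries were above all 4 DMSO libraries. The means were 297 ± 9.40 and 333 ± 6.29 CPM (± SD over n = 4 libraries a group), which is a log2 change of 0.17 (SE 0.035, 95% interval from 0.094 to 0.24, edgeR adjusted p = 0.00191).

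Cdkn1a (chromosome 17, 29090976 to 29100727, plus strand, 3 exons) was at 587, 585, 581 and 584 CPM in the DMSO replicates and at 602, 595, 642 and 611 CPM in the Yoda1 replicates. The DMSO libraries lay very close together, with a coefficient of variation of 0.400% against 3.41% with Yoda1, and the groups did not overlap (exact permutation test, two-sided, p = 0.0286, which 4 samples against 4 cannot go below). The log2 fold change of 0.068 (SE 0.034, 95% interval from -0.0020 to 0.14) did not pass over all genes (edgeR adjusted p = 0.214). The upper end of the interval is a 1.10-fold increase. An opposite-strand gene, AC167363.2, overlaps exons of Cdkn1a in GENCODE M21, and the strand setting of the counting is not given in the sources used here.

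Ccng1 (chromosome 11, 40748552 to 40755311, minus strand, 6 exons) was at 639.7, 628, 631 and 669 CPM with DMSO and at 657, 667, 649 and 650.2 CPM with Yoda1. The groups overlapped, since DMSO replicate 4 was the highest of all 8 libraries. Its log2 fold change was 0.031 (SE 0.034, 95% interval from -0.038 to 0.10, edgeR adjusted p = 0.620).

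Trp53inp1 (chromosome 4, 11156431 to 11174379, plus strand, 4 exons) was at 266, 266, 276 and 295 CPM with DMSO and at 291, 312, 277 and 275 CPM with Yoda1. The groups overlapped, with DMSO replicate 4 above 3 of the 4 Yoda1 libraries. The log2 fold change was 0.067 (SE 0.042, 95% interval from -0.018 to 0.15, edgeR adjusted p = 0.332).

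The promoter windows of Mdm2 and Cdkn1a are given because one gene passed the test and the other did not (chr10:117710709-117711008, minus strand, and chr17:29090729-29091028, plus strand, the first of the 2 windows listed for Cdkn1a). Capitals mark the p53 decamer and, for Cdkn1a, the stretch from the first to the last base of a p53 response element, defined as a pair of decamers at most 13 bases apart.
Mdm2 promoter: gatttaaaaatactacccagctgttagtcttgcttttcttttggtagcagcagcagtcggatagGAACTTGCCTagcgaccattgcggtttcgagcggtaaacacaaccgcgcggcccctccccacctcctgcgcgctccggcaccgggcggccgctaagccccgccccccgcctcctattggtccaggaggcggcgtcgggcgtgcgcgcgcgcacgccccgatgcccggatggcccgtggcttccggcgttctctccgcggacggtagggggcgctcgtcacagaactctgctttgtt
Cdkn1a promoter: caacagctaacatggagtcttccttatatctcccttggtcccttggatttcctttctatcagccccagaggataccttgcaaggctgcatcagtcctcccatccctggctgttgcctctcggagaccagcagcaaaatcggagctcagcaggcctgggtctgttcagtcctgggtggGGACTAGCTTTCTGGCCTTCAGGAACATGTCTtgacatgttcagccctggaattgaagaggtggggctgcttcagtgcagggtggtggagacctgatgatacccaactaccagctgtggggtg
The p53 response element starts at base -73 from the transcript start of the first Cdkn1a window and was found in 24 of the 32851 windows (0.0731%). That start lies upstream of the one in the second window (chr17:29093519-29093818, plus strand). The marked pair of decamers is a match to the definition used here. The bases right after it, tgacatgttc, miss the decamer only at their first base. The Mdm2 window holds 1 decamer, at -186, as do the windows of Ccng1 at -185 and Gadd45a at -40. Sequence outside the windows was not searched, so elements elsewhere in these genes would be missed. The second Cdkn1a window and the Cdkn1b window held none of the motifs searched.

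**Figure D2:**
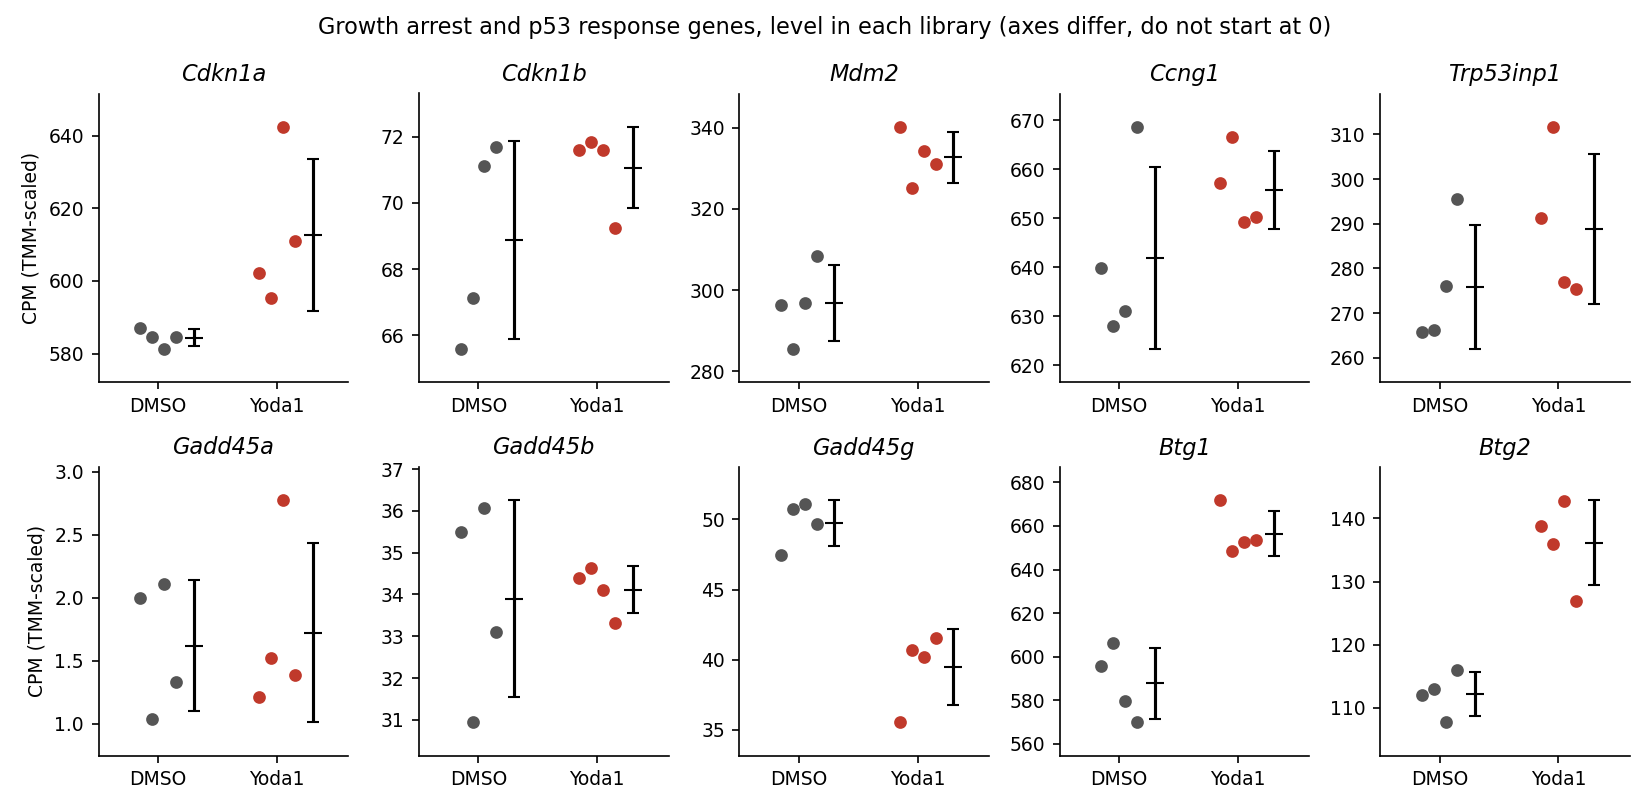
Each panel plots the level of 1 gene in CPM of the TMM-scaled library, with 1 point per library (grey DMSO, red Yoda1) and the mean ± SD of each group beside it, on axes that differ and do not start at 0. The groups are apart for Btg1, Btg2, Mdm2, Gadd45g and Cdkn1a and overlap for the other 5 genes.

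The GADD45 proteins are small acidic proteins that bind the kinase MAP3K4, which feeds the p38 and JNK pathways, and the DNA clamp PCNA. Gadd45a is a p53 target, Gadd45b responds to NF-κB and TGF-β, and Gadd45g is induced by cytokines and supports p38 signalling in T helper 1 cells. Gadd45g fell with Yoda1, while Gadd45b and Gadd45a did not pass the test.

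Gadd45g (chromosome 13, 51846678 to 51848468, plus strand, 4 exons) was at 47.4, 50.7, 51.1 and 49.7 CPM in the DMSO replicates and at 35.5, 40.7, 40.2 and 41.5 CPM in the Yoda1 replicates. Every Yoda1 library lay below every DMSO library, and Yoda1 replicate 1 was the lowest. The means were 49.7 ± 1.64 and 39.5 ± 2.69 CPM (± SD over n = 4 libraries a group), which is a log2 change of -0.33 (SE 0.054, 95% interval from -0.44 to -0.22, edgeR adjusted p = 8.51e-05). Over the libraries of both groups, the lowest raw count of Gadd45g was 440 and the highest 926. Without Yoda1 replicate 1 the log2 fold change was -0.28.

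Gadd45b (chromosome 10, 80930073 to 80932204, plus strand, 4 exons) was at 35.5, 30.9, 36.1 and 33.1 CPM with DMSO and at 34.4, 34.6, 34.1 and 33.3 CPM with Yoda1. The Yoda1 libraries lay within the range of the DMSO libraries. The log2 fold change was 0.0097 (SE 0.059, 95% interval from -0.11 to 0.13, edgeR adjusted p = 0.942), and its sign turned with library size alone (-0.012) and with upper-quartile factors (-0.021).

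Gadd45a (chromosome 6, 67035096 to 67037457, minus strand, 4 exons) was counted only 15 to 37 times per library, at 2.0, 1.04, 2.11 and 1.33 CPM with DMSO and at 1.21, 1.52, 2.77 and 1.39 CPM with Yoda1. Libraries of both groups were mixed over this range, with Yoda1 replicate 3 the highest. The log2 fold change was 0.074 (SE 0.27, edgeR adjusted p = 0.904), and its 95% interval from -0.48 to 0.63 runs from 0.715-fold to 1.55-fold. The sign turned without Yoda1 replicate 3 (-0.22) or DMSO replicate 2 (-0.11), and exons of the opposite-strand gene E230016M11Rik, counted 2 to 8 times per library, overlap it.

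The Gadd45g and Gadd45b windows are set side by side because one gene fell and the other did not pass the test (chr13:51846425-51846724, plus strand, and chr10:80929841-80930140, plus strand).
Gadd45g promoter: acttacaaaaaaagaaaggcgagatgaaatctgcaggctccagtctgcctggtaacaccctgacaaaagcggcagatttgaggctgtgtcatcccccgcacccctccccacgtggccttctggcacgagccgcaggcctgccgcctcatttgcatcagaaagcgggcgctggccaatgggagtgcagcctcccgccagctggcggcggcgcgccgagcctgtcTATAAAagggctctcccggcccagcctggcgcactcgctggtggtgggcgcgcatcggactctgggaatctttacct
Gadd45b promoter: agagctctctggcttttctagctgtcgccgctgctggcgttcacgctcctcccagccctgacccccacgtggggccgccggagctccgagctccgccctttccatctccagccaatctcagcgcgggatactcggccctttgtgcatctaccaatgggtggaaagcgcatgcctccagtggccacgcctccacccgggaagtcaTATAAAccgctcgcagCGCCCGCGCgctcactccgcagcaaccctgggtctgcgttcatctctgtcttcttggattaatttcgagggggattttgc
Both windows hold a TATA box, at -27 in Gadd45g and at -46 in Gadd45b, and the Gadd45b window also holds the Egr motif on the reverse strand at -30. Neither holds the cyclic AMP response element, the AP-1 motif or a p53 decamer.

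Whether members of a family changed unequally was tested on the log2 ratio of their counts within each library, in which the scaling cancels. The log2 ratio of Gadd45b to Gadd45g was -0.42, -0.71, -0.50 and -0.58 in the DMSO replicates and -0.047, -0.23, -0.24 and -0.32 in the Yoda1 replicates. The ratio was higher with Yoda1 by 0.35 on the log2 scale, and the groups did not overlap. The two-sided exact permutation test gave p = 0.0286, which 4 samples against 4 cannot go below. Adjusted over the 5 pairs tested, the difference did not pass (exact permutation test, adjusted p = 0.143). A pair that reaches this lowest value alone cannot pass the adjustment, so the adjusted test could not decide this pair. The ratio of Btg2 to Btg1 was higher with Yoda1 by 0.12 on the log2 scale (exact permutation test, p = 0.0571, adjusted p = 0.143), with DMSO replicate 4 inside the Yoda1 range. The differences were 0.40 for Gadd45a to Gadd45g, -0.058 for Gadd45b to Gadd45a and 0.022 for Cdkn1a to Cdkn1b (exact permutation test, adjusted p = 0.524, 0.857 and 0.714).

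**Figure D3:**
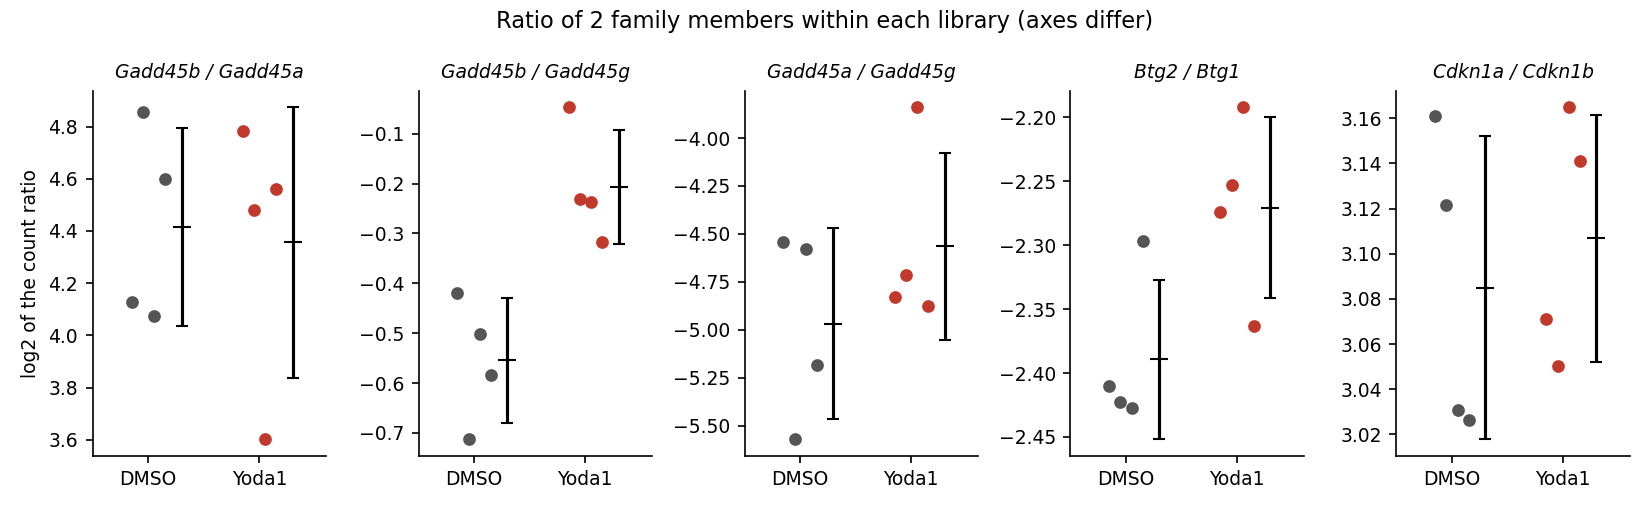
Each panel plots the log2 ratio of the counts of 2 family members in each library (grey DMSO, red Yoda1), with the mean ± SD of each group, on axes that differ. Only for Gadd45b to Gadd45g do all 4 Yoda1 libraries, from -0.32 to -0.047, lie above all 4 DMSO libraries, from -0.71 to -0.42.

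Cdkn1b encodes p27, a cyclin-dependent kinase inhibitor whose level is set largely by protein turnover through the ubiquitin ligase subunit Skp2 and by FOXO factors. Cdkn1b (chromosome 6, 134920401 to 134925513, plus strand, 2 exons) was at 65.6, 67.1, 71.1 and 71.7 CPM with DMSO and at 71.6, 71.8, 71.6 and 69.2 CPM with Yoda1. The groups overlapped, and DMSO replicates 1 and 2 were the lowest. The log2 fold change was 0.045 (SE 0.044, 95% interval from -0.045 to 0.14, edgeR adjusted p = 0.570).

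Per kilobase of exon, which allows levels to be compared between genes, the order over all 8 libraries was Ccng1 (185 CPM per kb), Cdkn1a (168), Btg1 (118), Mdm2 (61.9), Btg2 (45.3), Trp53inp1 (43.6), Gadd45g (38.0), Gadd45b (21.4), Cdkn1b (15.4) and Gadd45a (0.948). With both groups pooled, the libraries of Ccng1 and Cdkn1a overlapped in level per kb, and those of Btg2, Trp53inp1 and Gadd45g all overlapped each other. These genes were therefore not separated over all 8 libraries. By group, Btg2, Trp53inp1 and Gadd45g were at 40.9 ± 1.25, 42.6 ± 2.15 and 42.4 ± 1.40 CPM per kb with DMSO (± SD over n = 4 libraries). These spreads overlapped, so no order was resolved with DMSO. With Yoda1, Btg2, Trp53inp1 and Gadd45g were at 49.6 ± 2.45, 44.6 ± 2.60 and 33.6 ± 2.29 CPM per kb. There Gadd45g lay below Btg2 and Trp53inp1 by more than these spreads. Cdkn1a exceeded Cdkn1b in level per kb in every library, and Gadd45a was the lowest of the GADD45 genes. With the length of the longest transcript in place of all exons, Cdkn1a led with 288 CPM per kb and Trp53inp1 passed Btg2, so 6 of the 10 genes kept their place. The 10 genes took between 0.264% and 0.272% of the counts of a DMSO library and between 0.278% and 0.283% of those of a Yoda1 library.

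**Figure D4:**
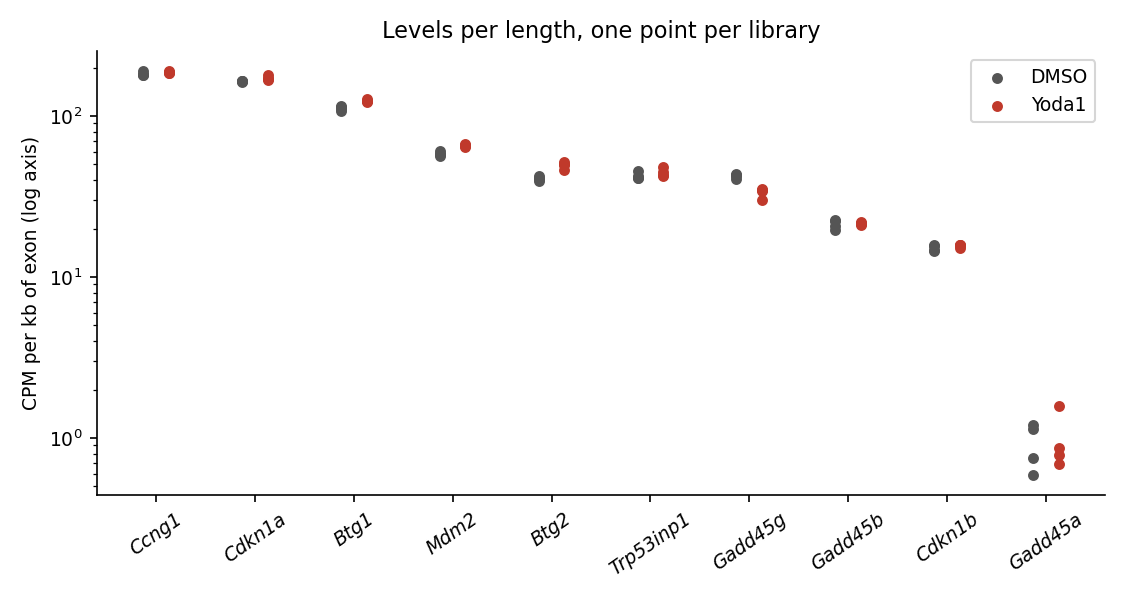
Levels per length are plotted as CPM per kb of exon on a log axis, with 1 point per library (grey DMSO, red Yoda1) and the genes ordered by their mean. Levels run from 185 CPM per kb for Ccng1 to 0.948 for Gadd45a.

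Other genes of these pathways were read from lists. For comparison, 10.9% of all genes tested passed, 48.4% had a log2 fold change above 0 and 15.5% had groups that did not overlap. Of 32 other p53 target genes, all tested, 5 passed, 3 higher and 2 lower, with 18 above 0 and a median log2 fold change of 0.0013. Plk3, a stress-responsive polo-like kinase, rose from 62.0 ± 1.68 to 83.0 ± 2.18 CPM (± SD over n = 4 libraries a group), which is a log2 change of 0.42 (edgeR adjusted p = 3.97e-08). Pmaip1, which encodes the BH3-only protein Noxa, rose from 186 ± 4.13 to 224 ± 3.09 CPM (log2 fold change 0.27, edgeR adjusted p = 2.55e-06), and Polk, a translesion DNA polymerase, rose by 0.23 on the log2 scale (edgeR adjusted p = 0.00136). Steap3, a metalloreductase counted 18 to 57 times per library, fell by 0.65 on the log2 scale (edgeR adjusted p = 0.0313), and Rrm2b, a ribonucleotide reductase subunit named after its value was seen, fell by 0.20 (edgeR adjusted p = 0.0307). The other targets described here did not pass the test, with log2 fold changes of -0.0070 for Bax, 0.016 for Bbc3 (Puma), 0.018 for Zmat3 and -0.11 for Sesn1 (edgeR adjusted p from 0.213 to 0.942).

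The calls for Steap3 and Rrm2b were the weak ones. Steap3 lost its call without DMSO replicate 1, 2 or 4 or Yoda1 replicate 1, 2 or 4 (adjusted p up to 0.101). Rrm2b lost its call without DMSO replicate 2 or 4 or Yoda1 replicate 2, 3 or 4 (adjusted p up to 0.137), and without Yoda1 replicate 4 the list had 3 calls.

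Of p53 and its regulators, 18 genes were tested and 2 passed, both lower, with a median of 0.014, where 10.9% of all genes passed. Trp73, which encodes the p53 relative p73, fell from 31.0 ± 1.89 to 22.4 ± 1.06 CPM (± SD over n = 4 libraries a group), which is a log2 change of -0.47 (edgeR adjusted p = 5.35e-06). Atr, a kinase of the DNA damage checkpoint, fell by 0.20 on the log2 scale (edgeR adjusted p = 0.0250), a call lost without DMSO replicate 2, 3 or 4 or Yoda1 replicate 1, 3 or 4 (adjusted p up to 0.0995), which left 1 gene. Trp53 itself was at 120 ± 2.31 and 126 ± 2.46 CPM (SD, n = 4 each). Its groups did not overlap, as for 15.5% of all genes tested, but its log2 fold change of 0.075 did not pass (edgeR adjusted p = 0.215). Mdm4, which restrains p53 together with Mdm2, had a log2 change of 0.0042 (edgeR adjusted p = 0.962).

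Among the partners of the arrest genes, 3 of the 13 cyclins, CDKs and pocket proteins of the G1/S step passed and all 3 were lower. Of the 13, 2 were above 0 and the median was -0.068, while of all genes tested 4.84% passed as lower and 48.4% were above 0. Ccnd1 (cyclin D1), counted 32 to 94 times per library, fell from 5.09 ± 0.380 to 2.88 ± 0.339 CPM (± SD over n = 4 libraries a group), which is a log2 change of -0.81 (edgeR adjusted p = 0.000362). Ccna2 (cyclin A2) fell by 0.16 and Ccnd3 (cyclin D3) by 0.13 on the log2 scale (edgeR adjusted p = 0.0221 and 0.0203). The call for Ccna2 was lost without DMSO replicate 2 or 4 or Yoda1 replicate 1, 2 or 4 (adjusted p up to 0.0850) and that for Ccnd3 without DMSO replicate 2 or Yoda1 replicate 1 or 4 (adjusted p up to 0.0986), so that 1 call was left without Yoda1 replicate 1 or 4.

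Of the 6 other CDK inhibitors, 0 passed by edgeR, DESeq2 or limma-voom and 2 had an unadjusted edgeR p under 0.05, with a median log2 fold change of -0.13. The log2 fold changes were 0.31 for Cdkn1c, counted 5 to 22 times per library, -0.21 for Cdkn2c and 0.0083 for Cdkn2d (edgeR adjusted p from 0.142 to 0.960), and that of Cdkn1c ran from 0.049 to 0.48 with 1 library left out. Of the 8 genes of p27 turnover and FOXO factors, 0 passed by edgeR, DESeq2 or limma-voom and 3 had an unadjusted edgeR p under 0.05, with a median of -0.040. Skp2 was at 9.80 ± 0.867 and 11.5 ± 0.362 CPM (log2 fold change 0.23, edgeR adjusted p = 0.100) and Foxo1 at 56.6 ± 3.98 and 51.7 ± 2.26 CPM (log2 fold change -0.13, edgeR adjusted p = 0.104; SD, n = 4 each). Foxo1 passed without DMSO replicate 1 (adjusted p = 0.0342).

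Of the other BTG/TOB genes and their deadenylases, 8 were tested and 2 passed, 1 in each direction, with 6 above 0 and a median of 0.076. Tob2, an antiproliferative relative of Btg1 and Btg2, rose from 108 ± 3.79 to 124 ± 4.95 CPM (± SD over n = 4 libraries a group), which is a log2 change of 0.19 (edgeR adjusted p = 0.00239). Cnot6, a catalytic subunit of the deadenylase, fell by 0.13 on the log2 scale (edgeR adjusted p = 0.0343), a call lost without DMSO replicate 2, 3 or 4 or Yoda1 replicate 1, 3 or 4 (adjusted p up to 0.128), which left 1 gene. Btg3 and Tob1 had log2 fold changes of 0.11 each (edgeR adjusted p = 0.515 and 0.412), which ran from 0.027 to 0.21 and from 0.063 to 0.17 with 1 library left out. Btg4 had 0 counts.

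Of the 8 partner kinases of GADD45, Map2k3, which activates p38, was the only one that passed, rising from 192 ± 5.66 to 219 ± 4.04 CPM (± SD over n = 4 libraries a group), which is a log2 change of 0.19 (edgeR adjusted p = 0.000519). Of the 8, 4 had an unadjusted edgeR p under 0.05, as had 3093 of the 12239 genes tested. In this list 3 genes were above 0 and the median log2 fold change was -0.017. Map3k4, which GADD45 proteins bind, had a log2 change of -0.045 (edgeR adjusted p = 0.711). Without DMSO replicate 1, 2 genes of this list passed.

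**Figure D5:**
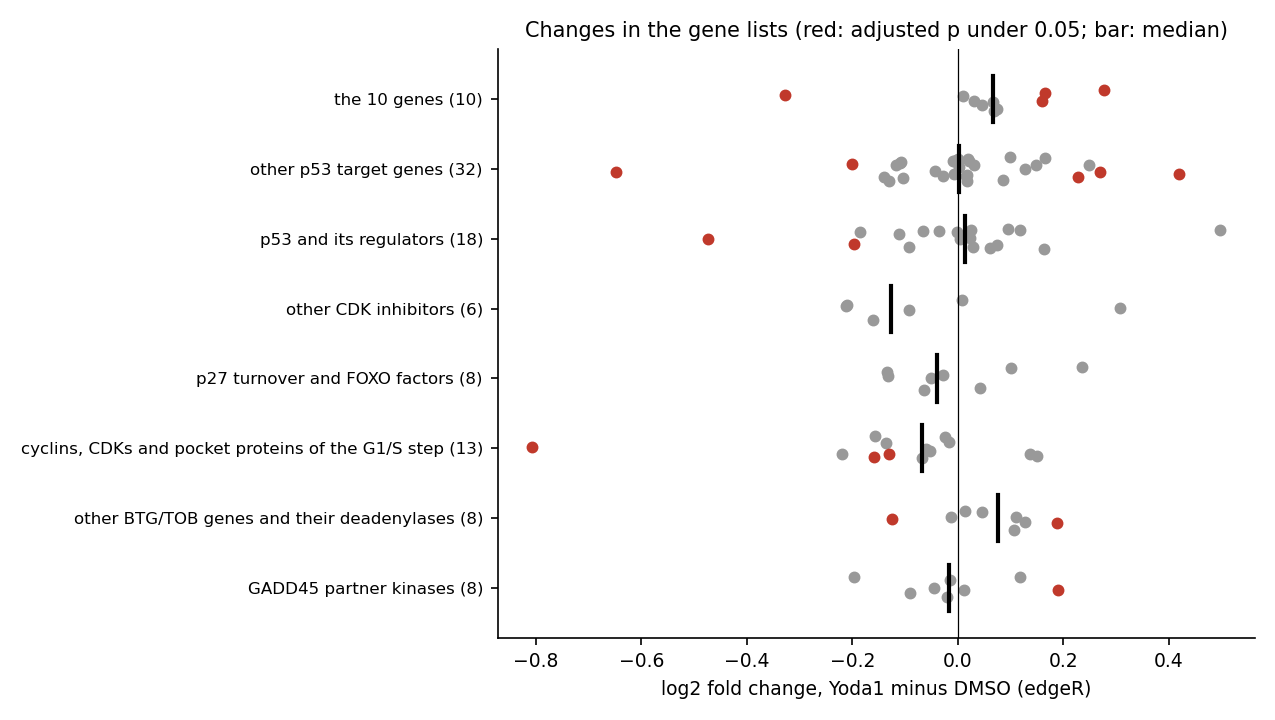
Each point is the log2 fold change (Yoda1 minus DMSO, edgeR) of 1 tested gene, with the genes of a list in a row, the number tested in parentheses, red for an adjusted p under 0.05 and a bar for the median. The medians run from -0.13 for the other CDK inhibitors to 0.076 for the other BTG/TOB genes, beside 0.067 for the 10 genes.

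In GENCODE M21, exons of opposite-strand genes overlap those of some genes named from these lists. The genes overlapped are Plk3 (Tctex1d4), Trp73 (Trp73os), Rrm2b, Atr, Ccnd1, Ccnd3 (Bysl), Ccna2 (Exosc9), Tob2, Btg3 (Cxadr), Foxo1 and Cdkn1c. The library kit was directional, but reads of the partners cannot be told apart if the counting ignored strand.

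The 3 genes whose pattern over the 8 libraries was most like that of Gadd45g, the called gene with the largest change, were Mb21d1, Rasa3 and Spata13. The root mean square difference of their centred log2 CPM from that of Gadd45g was 0.046, 0.047 and 0.048. Mb21d1 encodes the DNA sensor cGAS and went from 16.7 ± 0.811 to 14.0 ± 1.22 CPM, Rasa3, a Ras GTPase-activating protein, from 30.8 ± 1.39 to 24.0 ± 0.920 CPM, and Spata13 from 151 ± 6.34 to 122 ± 3.74 CPM (SD, n = 4 each). They were chosen for this likeness, so their values are a description.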

How the data were processed

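The authors deposited raw counts per gene symbol for each of the 8 libraries, without normalization. Reads were checked with FastQC and trimmed with FASTX Trimmer, with BBMap and then Cufflinks and Cuffdiff as the later tools in their methods. TopHat and mm10 are named in the submitters' processing notes. Tool versions, gene annotation and strand setting are not given in the sources used here.

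Genes were filtered with filterByExpr (minimum count 10, minimum total count 15), scaled with TMM and compared in R 4.3.3 with edgeR 4.0.16 (quasi-likelihood test, robust fitting, Benjamini-Hochberg adjustment at 0.05). The SE is the absolute log2 fold change over the root of F. DESeq2 1.42.0 and limma 3.58.1 were alternatives. Within-family ratios used log2 counts plus 0.5. No chi-square per gene between samples of a group was under 2.04, so all 8 were kept. On simulated data of 12239 genes with 200 changed, edgeR recovered 91.5%, and 6.15% of its calls were false. Recovery of changes as small as those of the 10 genes was not tested.

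The members and lists were chosen with earlier results of these data known, so no edgeR p was adjusted over a list alone. Only the p-values of the within-family ratios were adjusted over a chosen set, the 5 pairs. Named list genes are up to 4 called genes of each list with the largest change and 14 fixed ones. Positions came from GENCODE M21 and promoters from RefSeq (GRCm38.p6), which held windows for 9 of the 10 genes. Intervals cover the spread between these samples, and depth limits low genes.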

Additional observations from a re-analysis of the deposited data

Results flagged for a closer look

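In 4 of 90 groups of 4 values examined, 1 library stood apart from the other 3, where chance alone gives about 4.5. Yoda1 replicate 4 was low for Cdkn1b (69.2 CPM, the next 71.6) and DMSO replicate 4 was high for Skp2 (11.1 CPM, the next 9.51). Yoda1 replicate 3 was high for the log2 ratio of Gadd45a to Gadd45g (-3.84, the next -4.71), which rests on the low counts of Gadd45a, and DMSO replicate 4 was high for the log2 ratio of Btg2 to Btg1 (-2.30, the next -2.41). No cause of these values was tested.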

How the results depend on the processing

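All 16 alternatives kept the calls of Btg2, Mdm2, Btg1 and Gadd45g and added none of the other 6 genes. Their log2 fold changes ran from 0.25 to 0.31 for Btg2, 0.14 to 0.18 for Mdm2, 0.13 to 0.17 for Btg1 and -0.36 to -0.28 for Gadd45g, with adjusted p of at most 0.0176. The number of genes lower was 592, against 372 with DESeq2, 958 with upper-quartile factors, and from 367 (without DMSO replicate 2; 374 without Yoda1 replicate 4) to 677 with 1 library left out. The split of 739 higher and 592 lower became 505 and 958 with upper-quartile factors and 553 and 809 with library size only. Of the genes in the pathway lists 13 passed, against 8 with the replicate number as a block and between 7 (without Yoda1 replicate 4; 8 without Yoda1 replicate 1) and 16 with 1 library left out. By list, DESeq2 and the block each left 3 of 5 calls among other p53 targets, 1 of 2 among p53 regulators and 1 of 2 among BTG/TOB genes, and the block left 2 of 3 among the G1/S genes (Ccnd3 adjusted p = 0.0515), while upper-quartile factors gave 1 call among CDK inhibitors, 2 among p27 turnover and FOXO factors (Foxo1 adjusted p = 0.0397) and 2 among partner kinases. With the longest transcript, 6 genes kept their place in level per kb.

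Values near 0 turned in sign with library size only and upper-quartile factors for Gadd45b (-0.012 and -0.021), Bbc3 (-0.0058 and -0.015), Cdkn2d (-0.013 and -0.022), Mdm4 (-0.017 and -0.026) and Zmat3 (-0.0035 and -0.013), and with limma-voom for Cdkn2d (-0.0029). With 1 library left out the ranges were -0.22 to 0.23 for Gadd45a, -0.035 to 0.041 for Gadd45b, -0.032 to 0.026 for Bax, -0.017 to 0.050 for Bbc3, -0.052 to 0.080 for Cdkn2d, -0.093 to 0.0020 for Map3k4, -0.021 to 0.052 for Mdm4 and -0.053 to 0.078 for Zmat3. The cause was not tested.

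The replicate numbers are shared between the groups, but deviations of same-numbered samples correlated only from -0.028 to 0.071, and not every sample correlated best with its own number. With the replicate block 966 genes passed in place of 1331, and the exact sign-flip test of the within-family ratios gave the same differences, with p of at least 0.125, the smallest that 4 pairs allow.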
